A study of Mus musculus with 9 samples.

Results

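The 9 genes described here encode enzymes and a transporter of arginine, nitric oxide and itaconate metabolism, and were chosen by name: *Nos2*, *Arg1*, *Arg2*, *Ass1*, *Asl*, *Slc7a2*, *Gch1*, *Odc1* and *Acod1*. Each name matched 1 of the 55471 genes counted, and all 9 were among the 16260 genes with enough counts to be tested. RNA was sequenced from dendritic cells (DCs) grown from the bone marrow of wild-type (WT) C57BL/6 mice, which the methods describe as females of 8 to 20 weeks. All cultures received GM-CSF at 20 ng/mL and were left unstimulated, activated with LPS at 100 ng/mL or treated with IFN-β at 1000 U/mL for 6 h, with 3 libraries of each kind (A, B and C). The sources used here do not say whether the letters stand for separate mice or cultures, so p-values measure only the spread between these libraries, which may be technical.

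Arginine enters the cell through cationic amino acid transporters such as the product of *Slc7a2*, and is then shared between competing enzymes. The inducible nitric oxide synthase, encoded by *Nos2*, turns arginine into nitric oxide and citrulline and needs tetrahydrobiopterin, whose synthesis starts with the product of *Gch1*. Citrulline is returned to arginine by argininosuccinate synthase (*Ass1*) and argininosuccinate lyase (*Asl*). The arginases, cytosolic *Arg1* and mitochondrial *Arg2*, cleave arginine to ornithine and urea, and ornithine decarboxylase (*Odc1*) takes ornithine into the polyamines. *Acod1* encodes the mitochondrial enzyme that makes itaconate from cis-aconitate of the TCA cycle. *Nos2*, *Acod1* and *Arg1* are widely used to describe activated macrophages and DCs, since microbial products induce the first pair and the cytokine IL-4 induces *Arg1*.

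The libraries held 33425803 to 43735199 gene counts each. Values are given as CPM, the count of a gene relative to the library total after scaling, with TMM factors of 0.783 to 1.26 that correct for composition. The 9 genes took 0.221 to 0.245% of all counts without stimulation, 1.38 to 1.49% with LPS and 0.473 to 0.566% with IFN-β. All 8 DC markers (*Itgax*, *H2-Aa*, *Cd74*, *Zbtb46* and others) and all 6 macrophage markers (*Csf1r*, *Adgre1*, *Mertk* and others) were above 1 CPM in each group. The DC markers summed to 5014 to 6098 CPM in unstimulated libraries, 6716 to 7535 with LPS and 5578 to 5925 with IFN-β. The macrophage markers summed to 1719 to 2168, 1874 to 2431 and 2417 to 2749 CPM, respectively. No marker of neutrophils, mast cells, lymphocytes or erythroid cells reached 1 CPM in any group, and the 3 eosinophil markers summed to 11.9 to 32.7 CPM across the 9 libraries. In bulk RNA, fewer cells of a type and less RNA per cell cannot be told apart, and the part of the macrophage share in the results below was not tested.

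LPS raised 6 of the 9 genes and lowered 2, and IFN-β raised 5 and lowered none. Under LPS, *Nos2*, *Acod1*, *Slc7a2*, *Arg2*, *Gch1* and *Ass1* rose, *Arg1* and *Asl* fell, and *Odc1* did not pass the threshold of an adjusted p under 0.05. Under IFN-β, *Nos2*, *Acod1*, *Gch1*, *Slc7a2* and *Ass1* rose, whereas *Arg1*, *Arg2*, *Asl* and *Odc1* did not pass. In all tested genes 68.2% were past this threshold under LPS (32.8% higher, 35.4% lower) and 46.9% under IFN-β (23.6% higher, 23.3% lower). The median log2 fold change of the 9 genes was 2.29 under LPS against -0.04 for all tested genes, and 0.59 under IFN-β against -0.02. Compared directly, 7 of the 9 genes differed between IFN-β and LPS (2 higher and 5 lower under IFN-β), where 49.1% of all tested genes did (25.8% higher, 23.3% lower). The LPS and unstimulated libraries did not overlap for 8 of the 9 genes (background 72.4%), the IFN-β and unstimulated libraries for 7 (background 58.1%), and the IFN-β and LPS libraries for 7 (background 56.8%). For each gene whose groups did not overlap, an exact permutation test over libraries, two-sided, gave p = 0.1, the smallest that 3 against 3 allow. With the letters as a replicate block, 9 genes passed under LPS (6 higher, 3 lower), against 73.5% of all tested genes (35.4% higher, 38.1% lower), and 7 under IFN-β (6 higher, 1 lower), against 56.3% (27.9% higher, 28.4% lower). Without composition scaling the split under LPS was 5 higher and 3 lower, against 78.0% of all tested genes (17.1% higher, 60.9% lower). Under IFN-β it was then 4 higher and 2 lower, against 59.2% (13.2% higher, 46.0% lower).

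**Figure D1:**
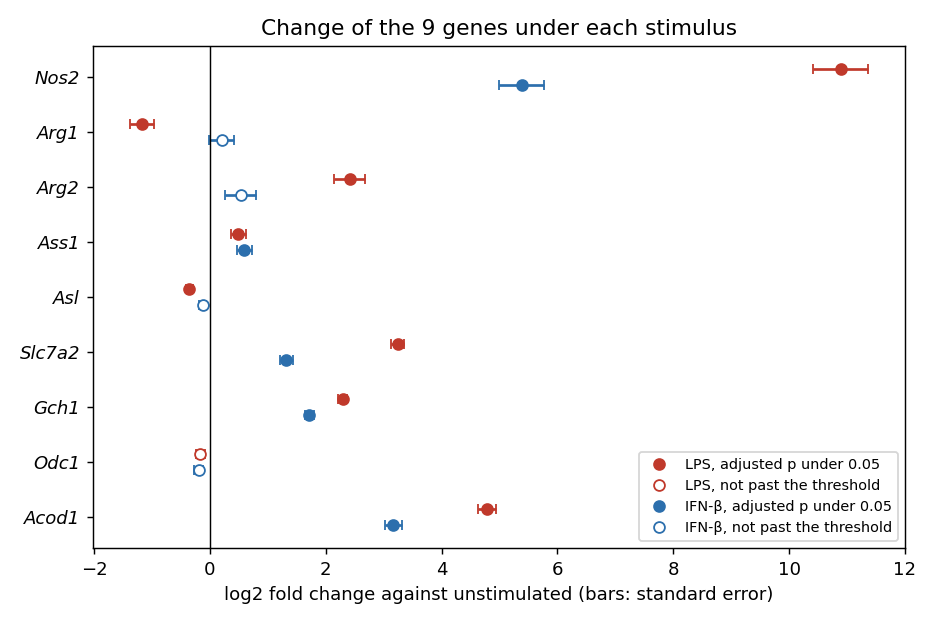
Log2 fold change of each gene (x axis) under LPS (red) and IFN-β (blue) against the same 3 unstimulated libraries, from 3 libraries per group; points are fitted values, bars are 1 standard error, and filled points have an adjusted p under 0.05. *Nos2* is the farthest point at 10.89 under LPS, *Arg1* and *Asl* are the filled points below 0, and the small positive value of *Ass1* under LPS becomes -0.09 when libraries are scaled by size only.

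*Nos2*, *Slc7a2* and *Gch1* rose under both stimuli. *Nos2* (ENSMUSG00000020826; chromosome 11 of GRCm38, 78920787 to 78960254, plus strand) had 3.52, 1.95 and 0.925 CPM in unstimulated libraries A, B and C, from 139, 87 and 41 counts. With LPS it had 4824, 3605 and 3620 CPM, and with IFN-β 112, 61.7 and 90.5 CPM. The groups were far apart, with every IFN-β library above every unstimulated library and below every LPS library. The log2 fold change of *Nos2* was 10.89 under LPS (standard error, SE, 0.48, adjusted p = 1.8e-08), a 1901-fold rise, and ranked 2 of 16260 genes by absolute size. Under IFN-β it was 5.38 (SE 0.39), which ranked 37, and the difference of IFN-β from LPS was -5.51 (SE 0.37, adjusted p = 8.9e-07). The spread of *Nos2* was widest before stimulation, where its coefficient of variation was 61.3%, against 17.4% with LPS and 28.5% with IFN-β (n = 3 each).

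*Slc7a2* (ENSMUSG00000031596; chromosome 8, 40862396 to 40922308, plus strand), the inducible arginine transporter of phagocytes, was already abundant without stimulation at 775, 724 and 653 CPM. It reached 7058, 6106 and 7175 CPM with LPS and 1797, 1647 and 1909 CPM with IFN-β. The 3 groups did not overlap, and the order was unstimulated, IFN-β, LPS. Of its exons, 635 bp (6.95%) overlap *Gm26584* on the other strand, which is not analysed here. The log2 fold change was 3.24 under LPS (SE 0.12, adjusted p = 6e-09) and 1.31 under IFN-β (SE 0.11, adjusted p = 8.3e-06), that is 9.45-fold and 2.49-fold. The difference of IFN-β from LPS was -1.93 (SE 0.11, adjusted p = 3.3e-07).

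*Gch1* (ENSMUSG00000037580; chromosome 14, 47153895 to 47189413, minus strand), which encodes GTP cyclohydrolase I, had 51.9, 51.6 and 48.9 CPM in unstimulated libraries. LPS libraries had 266, 248 and 231 CPM and IFN-β libraries 163, 158 and 181 CPM. Replicates were close, with coefficients of variation of 3.30%, 6.97% and 7.27%, and the groups did not overlap. The change of *Gch1* was 2.29 with LPS on the log2 scale (SE 0.08, adjusted p = 4.8e-09) and 1.72 under IFN-β (SE 0.08, adjusted p = 4e-07). Its rises, 4.89-fold and 3.29-fold, were closer to each other than those of *Nos2* or *Slc7a2*, but the difference of IFN-β from LPS was still -0.57 (SE 0.07, adjusted p = 1.1e-04).

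**Figure D2:**
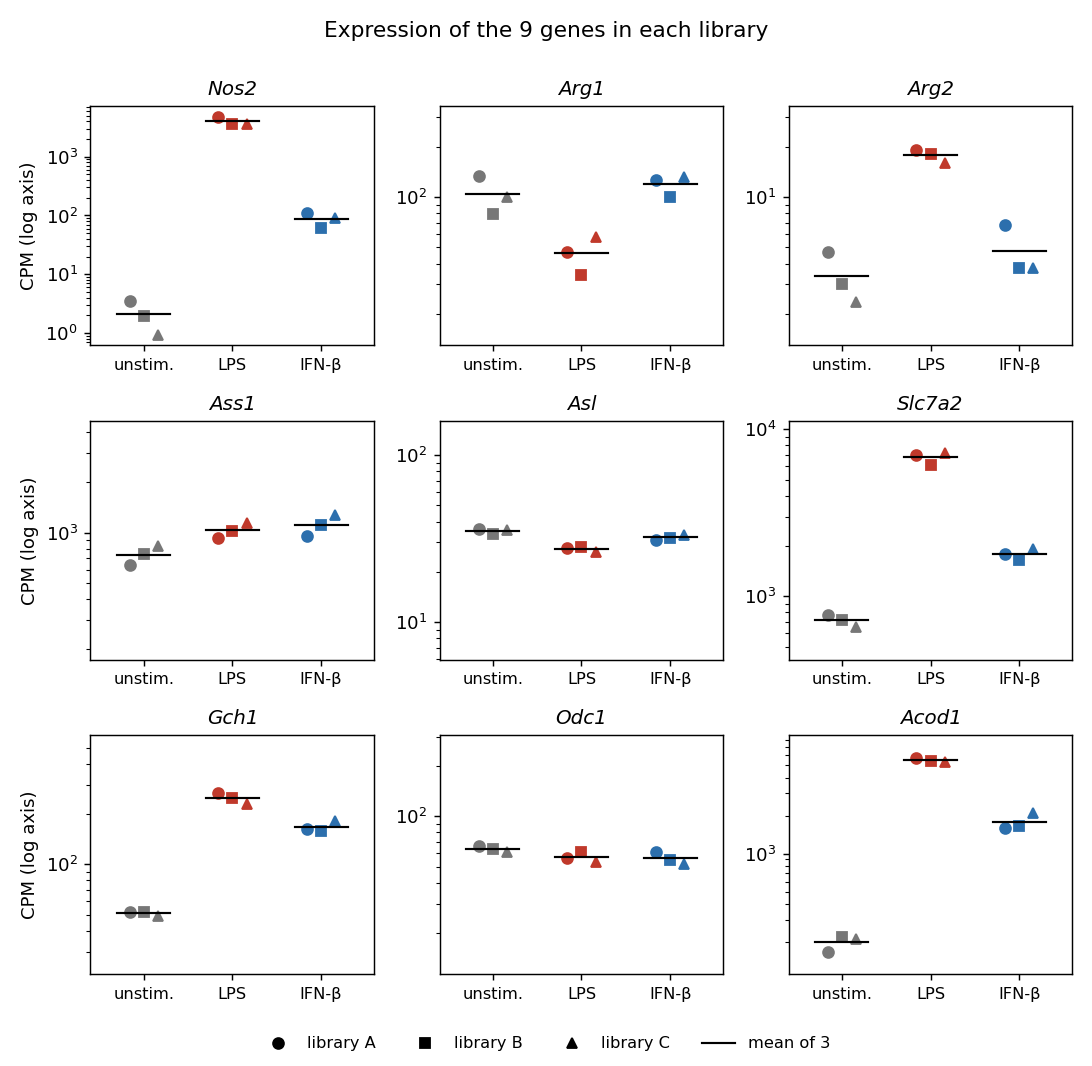
CPM of each gene in each of the 9 libraries on log axes, each panel with its own range; symbols mark libraries A, B and C and horizontal bars the mean of 3. The LPS points of *Nos2*, *Slc7a2*, *Gch1*, *Arg2* and *Acod1* lie above all others, those of *Arg1* and *Asl* below all others, and the groups of *Odc1* lie within 51.8 to 66.7 CPM.

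The arginases moved in opposite directions under LPS. *Arg1* (ENSMUSG00000019987; chromosome 10, 24915221 to 24927484, minus strand) had 133, 78.9 and 99.7 CPM in unstimulated libraries, 47.1, 34.0 and 57.3 with LPS and 126, 101 and 131 with IFN-β. All LPS libraries were below all others, and the unstimulated and IFN-β libraries overlapped. The log2 fold change was -1.17 under LPS (SE 0.21, adjusted p = 5.5e-04) and 0.20 under IFN-β (SE 0.21, adjusted p = 0.465). *Arg1* was higher under IFN-β than under LPS by 1.37 (SE 0.21, adjusted p = 3.7e-04), a 2.59-fold difference. Scaled by library size only, the value under IFN-β was -0.10 (adjusted p = 0.666), so that its sign depended on the scaling.

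*Arg2* (ENSMUSG00000021125; chromosome 12, 79130777 to 79156301, plus strand) was scarce in unstimulated DCs, with 4.66, 3.03 and 2.37 CPM from 184, 135 and 105 counts. It had 19.1, 18.1 and 16.1 CPM with LPS and 6.84, 3.77 and 3.76 CPM with IFN-β. The LPS libraries stood above all others, and the IFN-β libraries overlapped the unstimulated ones. The log2 fold change was 2.41 under LPS (SE 0.27, adjusted p = 1.3e-05), a 5.32-fold rise, and 0.53 under IFN-β (SE 0.27, adjusted p = 0.139). Within each letter *Arg2* was higher with IFN-β than without by 0.27 to 0.57, and with the replicate block the change under IFN-β was 0.52 and past the threshold (adjusted p = 0.0112). It was also past it without unstimulated library A, at 0.83 (adjusted p = 0.0277). Of the exons of *Arg2*, 285 bp (19.96%) overlap the gene *Vti1b* and 116 bp (8.12%) the antisense gene *Gm48780*, both on the other strand. *Vti1b* changed by -0.11 under LPS (adjusted p = 0.103) and -0.05 under IFN-β (adjusted p = 0.547), and *Gm48780*, with at most 36 counts, rose by 0.64 under LPS (adjusted p = 0.0412). The strand setting of the counting is not given in the sources used here, so reads of these stretches may not be assigned to their own gene.

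Ratios within a library are free of the scaling between libraries. Per kb of exon and with 0.5 added to each count, *Nos2* had 0.0134, 0.0126 and 0.00474 times the level of *Arg1* without stimulation (libraries A, B and C). The ratios were 51.7, 53.6 and 31.9 with LPS and 0.448, 0.309 and 0.348 with IFN-β. *Arg1* was thus the more abundant of the pair in all unstimulated and IFN-β libraries and *Nos2* in all LPS libraries. The mean log2 ratio was -6.75 ± 0.84, 5.48 ± 0.42 and -1.46 ± 0.27, respectively (SD, n = 3 each). *Arg1* exceeded *Arg2* by 16.6 to 26.8 times per kb in unstimulated DCs, 11.8 to 22.3 times with IFN-β and 1.2 to 2.28 times with LPS. The log2 ratio of *Arg1* to *Arg2* was 4.33 ± 0.37, 4.04 ± 0.46 and 0.70 ± 0.46 in the same order (SD, n = 3 each), so that the LPS libraries lay apart and the other groups overlapped.

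**Figure D3:**
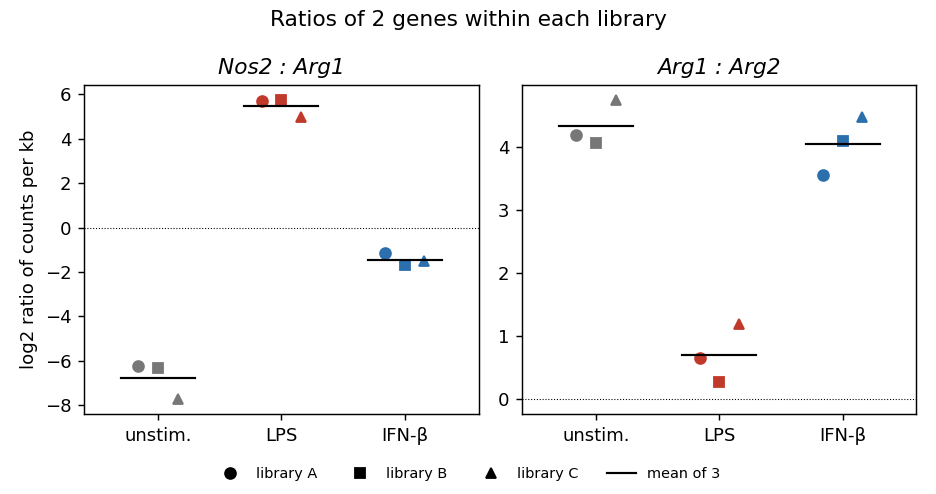
Log2 ratio of counts per kb of exon within each library, for *Nos2* to *Arg1* (left) and *Arg1* to *Arg2* (right), by group; symbols mark libraries A, B and C, bars the mean of 3, and the dotted line equal levels. The LPS libraries are the only points above the line on the left (4.995 to 5.74) and the lowest points on the right (0.27 to 1.19).

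The enzymes that return citrulline to arginine differed from each other. *Ass1* (ENSMUSG00000076441; chromosome 2, 31470207 to 31520672, plus strand) had 638, 741 and 829 CPM in unstimulated libraries, 931, 1022 and 1146 with LPS and 952, 1105 and 1267 with IFN-β. Both stimulated groups lay above the unstimulated group and overlapped each other. *Ass1* rose by 0.49 under LPS (SE 0.13, adjusted p = 0.00668) and 0.59 under IFN-β (SE 0.13, adjusted p = 0.00397) on the log2 scale, but with scaling by library size only the values were -0.09 (adjusted p = 0.565) and 0.28 (adjusted p = 0.118). The difference of IFN-β from LPS was 0.10 (SE 0.13, adjusted p = 0.554), and 0.37 with scaling by library size only (adjusted p = 0.0467). In every group library A had the least *Ass1* and library C the most, and the rise from one condition to the other within a letter was 0.46 to 0.55 for LPS and 0.58 to 0.61 for IFN-β.

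*Asl* (ENSMUSG00000025533; chromosome 5, 130011258 to 130029247, minus strand) was less abundant and fell slightly under LPS. Its values were 36.1, 33.9 and 35.4 CPM without stimulation, 27.6, 28.2 and 26.5 with LPS and 31.1, 32.0 and 33.3 with IFN-β. No group overlapped another. The log2 fold change was -0.36 under LPS (SE 0.06, adjusted p = 3.7e-04) and -0.13 under IFN-β (SE 0.06, adjusted p = 0.108), and the groups differed by 0.23 (SE 0.06, adjusted p = 0.0104). With upper-quartile factors the value under IFN-β was -0.21 (adjusted p = 0.0191), and with scaling by library size only it was -0.44 (adjusted p = 3.1e-04).

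*Odc1* (ENSMUSG00000011179; chromosome 12, 17544794 to 17551505, plus strand), the first enzyme of polyamine synthesis, had 66.7, 63.8 and 61.1 CPM in unstimulated libraries, 56.0, 61.3 and 52.9 with LPS and 60.9, 55.1 and 51.8 with IFN-β. The IFN-β libraries lay just below the unstimulated ones, and LPS library B lay within the unstimulated range. The log2 fold change was -0.17 under LPS (SE 0.08, adjusted p = 0.0767) and -0.19 under IFN-β (SE 0.08, adjusted p = 0.0694), and -0.02 between IFN-β and LPS (adjusted p = 0.849; 0.25 with scaling by library size only, adjusted p = 0.0188). With the replicate block the same changes were past the threshold, at -0.17 (adjusted p = 0.018) and -0.19 (adjusted p = 0.0124). They were also past it with scaling by library size only, at -0.75 (adjusted p = 5.2e-06) and -0.50 (adjusted p = 3.3e-04), and with upper-quartile factors, at -0.26 (adjusted p = 0.00726) and -0.27 (adjusted p = 0.0102). The value under LPS was also past it without LPS library B (-0.23, adjusted p = 0.0335), and that under IFN-β without IFN-β library A (-0.26, adjusted p = 0.0281).

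*Acod1* (ENSMUSG00000022126; chromosome 14, 103046977 to 103056573, plus strand) was expressed in unstimulated DCs at 166, 218 and 212 CPM. LPS libraries had 5761, 5404 and 5329 CPM, from 162818 to 185500 counts, and IFN-β libraries had 1593, 1668 and 2095 CPM. The 3 groups did not overlap, in the order unstimulated, IFN-β, LPS. *Acod1* rose by 4.79 under LPS (SE 0.16, adjusted p = 4.1e-09) on the log2 scale, and by 3.17 with IFN-β (SE 0.15, adjusted p = 4.4e-07). These are rises of 27.6-fold and 8.97-fold, which ranked 227 and 189 of 16260 genes by absolute size. The difference of IFN-β from LPS was -1.62 (SE 0.14, adjusted p = 4.7e-06).

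RefSeq promoter windows of GRCm38.p6, from 250 bases before to 50 after the start, were at hand for 4 of the 9 genes. They set a pair that rose under both stimuli by more than 1 on the log2 scale (*Acod1*, *Gch1*) beside *Ass1* and *Odc1*. *Ass1* changed little, and the small falls of *Odc1* passed the threshold only under some alternatives, such as the replicate block. The windows are chr14:103046762-103047061 (plus strand) for *Acod1*, chr14:47189364-47189663 (minus) for *Gch1*, chr2:31470020-31470319 (plus) for *Ass1* and chr12:17544623-17544922 (plus) for *Odc1*. Capitals mark matches, on either strand, to the letters of 8 motifs described next.
Acod1: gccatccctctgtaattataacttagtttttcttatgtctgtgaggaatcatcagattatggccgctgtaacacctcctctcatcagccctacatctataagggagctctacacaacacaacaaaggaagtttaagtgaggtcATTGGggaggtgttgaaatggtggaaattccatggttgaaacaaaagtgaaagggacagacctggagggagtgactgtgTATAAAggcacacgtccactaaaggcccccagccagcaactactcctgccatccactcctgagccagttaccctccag
Gch1: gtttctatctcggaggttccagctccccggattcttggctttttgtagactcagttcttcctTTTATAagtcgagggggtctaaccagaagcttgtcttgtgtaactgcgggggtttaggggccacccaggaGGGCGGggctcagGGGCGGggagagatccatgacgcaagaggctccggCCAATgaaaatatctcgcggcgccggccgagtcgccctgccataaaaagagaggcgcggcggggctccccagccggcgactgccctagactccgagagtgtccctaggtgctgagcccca
Ass1: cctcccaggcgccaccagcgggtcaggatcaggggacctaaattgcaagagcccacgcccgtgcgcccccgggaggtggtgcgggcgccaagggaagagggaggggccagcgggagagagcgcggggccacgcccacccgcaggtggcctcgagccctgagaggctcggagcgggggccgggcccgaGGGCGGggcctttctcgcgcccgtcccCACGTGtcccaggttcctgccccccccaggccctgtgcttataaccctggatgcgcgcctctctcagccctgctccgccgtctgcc
Odc1: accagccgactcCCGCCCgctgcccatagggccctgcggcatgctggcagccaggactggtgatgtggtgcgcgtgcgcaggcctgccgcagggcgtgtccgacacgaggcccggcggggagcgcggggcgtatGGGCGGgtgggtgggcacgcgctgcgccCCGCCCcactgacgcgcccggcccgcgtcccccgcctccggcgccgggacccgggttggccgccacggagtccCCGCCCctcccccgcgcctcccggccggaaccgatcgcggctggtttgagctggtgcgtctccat

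The letters searched were TATAAA for the TATA box, CCAAT for the CCAAT box, GGGCGG for the GC box, CACGTG for the E-box, TTCNNNGAA for the STAT-binding GAS element, and TGACGTCA for the cyclic AMP response element, together with longer patterns for an interferon response core and an NF-κB site, given by name only. No 2 of the matches overlapped each other. The *Acod1* window holds TATAAA from 28 to 23 bases before the start, a motif present in 13.6% of all 32851 windows, and CCAAT on the other strand (37.4% of windows). The *Gch1* window holds a CCAAT and 2 GC boxes (35.7% of windows), and TATAAA on the other strand. The *Ass1* window holds a GC box and an E-box (7.15% of windows), and that of *Odc1* holds 4 GC boxes. The GAS, interferon response, NF-κB and cyclic AMP letters, found in 8.3%, 3.44%, 1.63% and 1.79% of all windows, are not in these 4 windows. Only these exact patterns were searched, so looser forms of the same sites may be present in them. The GC content was 47.0% for *Acod1*, 60.3% for *Gch1*, 74.0% for *Ass1* and 78.0% for *Odc1*, with a median of 52.7% over all windows.

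Levels of different genes were compared per kb of exon, with the exons of all transcripts of a gene merged. The order of genes depends on this length. By mean CPM with LPS, *Slc7a2* (6780) was above *Nos2* (4016), and *Asl* (27.4) above *Arg2* (17.8). In unstimulated DCs *Ass1* led with 305 ± 39.7 CPM per kb, followed by *Slc7a2* with 78.6 ± 6.71 and *Acod1* with 75.9 ± 10.9, whose libraries overlapped, and *Arg1* with 46.7 ± 12.3 (SD, n = 3 each). *Odc1*, *Gch1*, *Asl* and *Arg2* lay between 18.8 and 2.35 CPM per kb, and *Nos2* was last with 0.484 ± 0.296. With LPS *Acod1* led with 2096 ± 87.9 CPM per kb and *Nos2* had moved to the second place with 910 ± 159, ahead of *Slc7a2* with 742 ± 64.2 and *Ass1* with 428 ± 44.6 (SD, n = 3 each). Among all 16260 tested genes, *Acod1* then ranked 19 to 21 in the 3 LPS libraries, *Nos2* 45 to 51 and *Slc7a2* 55 to 62. With LPS the libraries of *Arg1* (20.7 ± 5.25) and *Odc1* (16.7 ± 1.24) overlapped, *Arg2* came next with 12.4 ± 1.09, and *Asl* was last with 5.68 ± 0.184 CPM per kb (SD, n = 3 each). With IFN-β the order was *Acod1* (681 ± 103), *Ass1* (459 ± 65.3), *Slc7a2* (195 ± 14.4) and *Arg1* (53.6 ± 7.34), and *Arg2* was last with 3.35 ± 1.24 CPM per kb (SD, n = 3 each). The IFN-β libraries of *Nos2* (19.9 ± 5.67) overlapped those of *Gch1* above and of *Odc1* below (SD, n = 3).

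**Figure D4:**
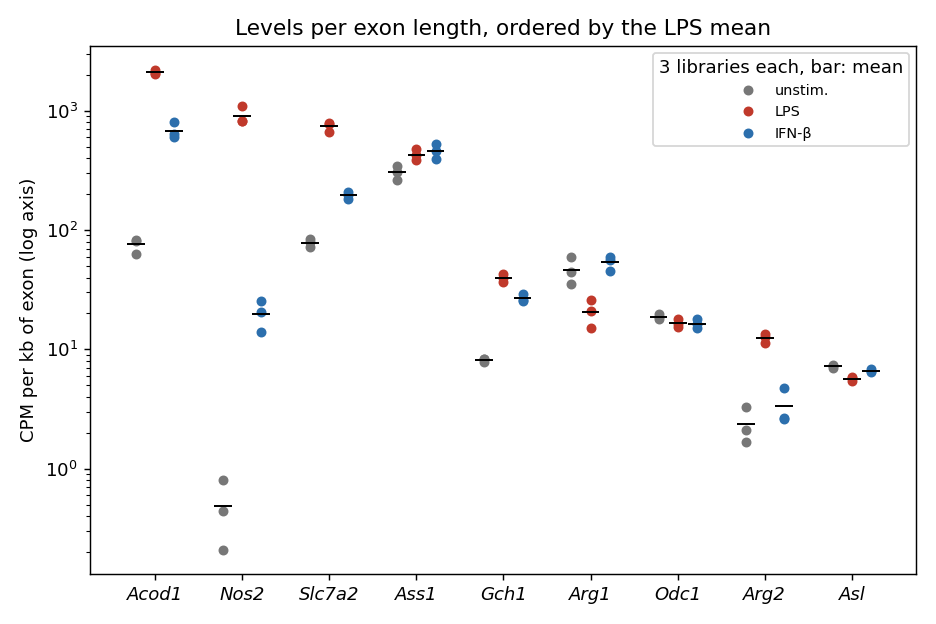
CPM per kb of exon on a log axis for each gene in 3 unstimulated (grey), 3 LPS (red) and 3 IFN-β (blue) libraries, ordered by the LPS mean; bars are means of 3. *Nos2* spans the widest range, from 0.484 to 910 CPM per kb between group means, and *Odc1* the narrowest on this axis, from 16.4 to 18.8.

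Further genes of the same pathways were taken from 8 lists of 62 genes in all, of which 48 were tested. LPS raised 11 and lowered 30 of the 48 genes, and IFN-β raised 9 and lowered 22. Of all tested genes 68.2% were past the threshold under LPS (32.8% higher, 35.4% lower) and 46.9% under IFN-β (23.6% higher, 23.3% lower). Scaled by library size only, the splits were 6 higher and 34 lower under each stimulus. Of all tested genes 17.1% were then higher and 60.9% lower under LPS, and 13.2% and 46.0% under IFN-β. Among 5 arginine transport genes, *Slc3a2*, the shared heavy chain of several amino acid transporters, rose by 1.84 under LPS (adjusted p = 5.3e-09) on the log2 scale and by 0.92 under IFN-β. *Slc7a3*, another cationic transporter, rose by 1.26 and 1.02 at no more than 43 counts, and *Slc7a6* fell by 0.72 and 1.25. *Slc7a1*, the widely expressed arginine transporter, which was picked after its values were seen, fell by 0.84 under LPS (adjusted p = 4.2e-06) and 0.72 under IFN-β (adjusted p = 5e-05), against the rises of *Slc7a2*.

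Of the genes that act beside *Nos2*, the other synthases *Nos1* and *Nos3* and the receptor genes *Gucy1a1*, *Gucy1a2* and *Gucy1b1* did not exceed 4 counts in any library. *Nostrin*, known as a trafficking factor of the endothelial synthase, fell by 0.78 and 0.41. The tetrahydrobiopterin genes beyond *Gch1* went the other way from it. All 5 tested fell under LPS (35.4% of all tested genes fell) and 2 of the 5 under IFN-β (23.3%), none rising. Under LPS, 4 of the 5 fell without unstimulated library A or C or LPS library A or B. Under IFN-β, 1 fell without unstimulated library A or C or IFN-β library A or B. With the replicate block 4 fell under IFN-β (28.4% of all tested genes fell). Shares of all tested genes in the fits without a library are not given here. *Spr*, the last enzyme of the synthesis, fell by 1.09 under LPS (adjusted p = 2.4e-06) and 0.74 under IFN-β (adjusted p = 1.2e-04). The recycling enzyme *Qdpr* had a log2 change of -0.81 with LPS (adjusted p = 6.2e-06) and with IFN-β it fell by 0.25 (adjusted p = 0.0257; 0.068 to 0.0873 in the 4 fits without unstimulated library A or C or IFN-β library A or B). *Gchfr*, which encodes the feedback regulator of the *Gch1* product, had at most 5 counts.

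Beyond ornithine, 6 of 12 tested polyamine genes rose and 4 fell under LPS, with the same counts under IFN-β. Of all tested genes, 32.8% rose and 35.4% fell under LPS, and 23.6% and 23.3% under IFN-β. Scaled by library size only, 3 polyamine genes rose and 6 fell under LPS, against 17.1% and 60.9% of all tested genes. Under IFN-β 4 then rose and 6 fell, against 13.2% and 46.0%. With composition scaling, 2 polyamine genes fell under IFN-β when IFN-β library B was left out. *Srm*, encoding spermidine synthase, fell by 3.15 under LPS (adjusted p = 2.7e-07) and 2.23 under IFN-β (adjusted p = 9.5e-06), from 19.3 ± 3.28 CPM to 2.17 ± 0.514 and 4.13 ± 0.878 (SD, n = 3 each). The oxidase *Paox* fell by 1.77 under LPS, and the antizyme inhibitor *Azin2* rose by 1.64 and 1.29. Of 8 tested ornithine, proline and creatine genes, 7 fell under each stimulus (35.4% of all tested genes fell under LPS and 23.3% under IFN-β). *Prodh*, which starts proline breakdown, fell by 2.24 and 1.29, and *Aldh18a1*, which starts proline synthesis, fell by 1.69 under LPS and by 0.60 under IFN-β.

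In the urea cycle list, *Cps1* and *Otc*, which define the hepatic cycle, had at most 2 counts in any library. The ornithine carrier *Slc25a15* fell by 1.28 under LPS and 0.82 under IFN-β, and *Nags*, which makes the activator of carbamoyl phosphate synthesis, fell by 0.99 under LPS (adjusted p = 0.00548) and had -0.62 under IFN-β (adjusted p = 0.0614; 0.00253 with the replicate block). Around *Acod1*, 6 of 9 genes of itaconate supply and breakdown fell and 1 rose under LPS, and 4 fell and none rose under IFN-β. Of all tested genes, 35.4% fell and 32.8% rose under LPS, and 23.3% fell and 23.6% rose under IFN-β. Scaled by library size only, 7 and 8 of the 9 fell and none rose, against 60.9% and 46.0% of all tested genes lower. With composition scaling, 2 of the 9 fell under IFN-β without unstimulated library B, unstimulated library C or IFN-β library A. Without IFN-β library B, 3 fell and 1 rose under IFN-β. *Clybl*, which clears citramalyl-CoA in itaconate breakdown, fell by 1.51 under LPS (adjusted p = 1.9e-06) and 0.48 under IFN-β (adjusted p = 0.00768). *Suclg2*, a subunit of succinyl-CoA ligase, fell by 1.47 under LPS and had -0.49 under IFN-β (adjusted p = 0.0677; 3.9e-04 with the replicate block). The cytosolic aconitase *Aco1* fell by 1.06 and 0.50.

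**Figure D5:**
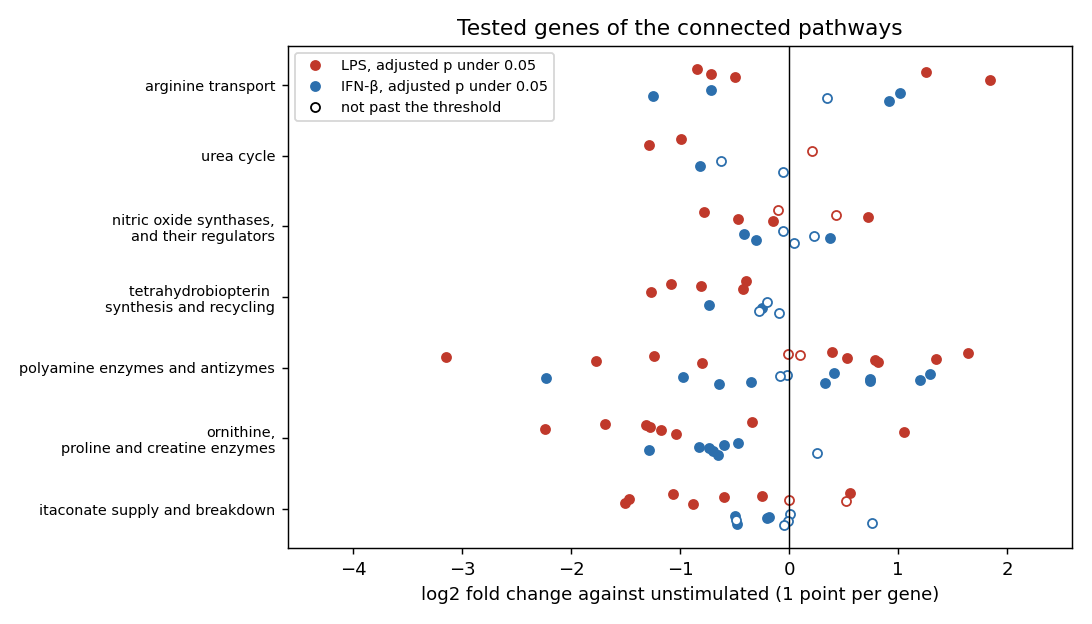
Log2 fold change against unstimulated DCs for the 48 tested genes of the connected pathways, by list, under LPS (red) and IFN-β (blue), which share the 3 unstimulated libraries; filled points have an adjusted p under 0.05. Of these points 11 lie filled to the right and 30 filled to the left under LPS, and 9 and 22 under IFN-β. The farthest left is *Srm* at -3.15. With scaling by library size only the counts are 6 and 34 for each. By that scaling 60.9% of all tested genes are lower under LPS and 46.0% under IFN-β.

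The genes with the profile most like each of the 9 were found over the 9 libraries by the root mean square difference of log2(CPM + 0.5), each gene centred on its unstimulated mean; a gene that moves little has many close profiles. *Nos2* had no close match: the nearest were the chemokine gene *Cxcl10* at 1.25 and the antiviral gene *Rsad2* at 1.60. *Acod1* was nearest to *Ccrl2* (0.31) and the antiviral gene *Mx1* (0.34). *Slc7a2* was nearest to *Coch* (0.12), which had only 0.0234 CPM without stimulation so that the added 0.5 sets its profile, and to the chemokine gene *Ccl4* (0.12), which rose by 3.34 with LPS and 1.32 with IFN-β. For *Gch1*, *Stxbp3* (0.10), which encodes a syntaxin-binding protein and rose by 2.24 under LPS, was among the 2 nearest. *Arg1* was nearest to *Rab3d* (0.21), with log2 fold changes of -1.22 and 0.23, and to *Hsd11b2* (0.24). *Hsd11b2* had 1.56 CPM without stimulation and changed by -2.07 under LPS and 0.17 under IFN-β, so that the added 0.5 weighs on its profile. *Arg2* was nearest to *Ppp4r2* and *Penk* (both 0.18). *Ass1* was nearest to *Smim38* and *Ctnnal1* (both 0.09), which had 0.407 and 0.602 CPM without stimulation, so that the added 0.5 weighs on their profiles too. *Asl* was nearest to *Was* (0.03) and *Prpf8* (0.04), and *Odc1* to *Wipi2* and *Gas2l1* (both 0.04).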

How the data were processed

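The 9 libraries were grouped by the treatment in the labels. The authors trimmed adapters (Trim Galore 0.6.0 in the submitters' processing notes), mapped reads to GRCm38 (mm10) with STAR (2.7.8a in those notes; the methods name another version) and deposited raw counts per gene and library, on a GENCODE annotation, with no filter. All 9 genes were fitted with all others. Genes were kept by filterByExpr, counts were scaled with TMM factors, and 1 term per condition was fitted over the 9 libraries with edgeR 4.0.16 (limma 3.58.1, R 4.3.3), with quasi-likelihood F-tests and Benjamini-Hochberg adjustment over 16260 genes. Standard errors are the absolute log2 fold change over the square root of F. Exon lengths and coordinates came from GENCODE M21, a later release of the same build, in which 55230 of 55471 identifiers were found.

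Libraries with the same letter deviated together from their group means (correlation 0.13 to 0.55 over genes in 9 pairs), so letters were taken to pair the libraries, from the data and not from the labels. The values given come from the fit without letters, and the replicate block is an alternative. DESeq2 1.42.0, other scalings, filters and thresholds, fits of 2 groups, and leaving out each library were also tried. Replicates of a group differed by more than counting noise in all 9 pairs. The fit was tested on simulated data for LPS against unstimulated, with 15547 genes. It recovered 90% of 100 genes set to differ by 1 on the log2 scale, and 99% of 100 set to differ by 2. The false share was 7.8%, above what an adjusted p under 0.05 allows for. In the data 68.2% of tested genes were past the threshold under LPS, far more than were set to differ in the simulation. The simulated percentages may therefore not hold for the data. The genes and lists were chosen with earlier results of these data known. The text names the 9 genes, up to 2 genes per list and comparison with the largest change past the threshold, the 2 nearest profiles of each gene, and genes marked as picked afterwards or given by their low counts. Some genes that this rule names are not reported here.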

Additional observations from a re-analysis of the deposited data

How the results depend on the processing

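The 27 comparisons of the 9 genes were recomputed under 16 alternatives, 432 values in all. Of these, 410 kept their direction and their side of the threshold, 14 moved past it, 1 dropped below it and 7 changed sign. Among those that changed sign, *Ass1* under LPS also dropped below the threshold and *Odc1* between IFN-β and LPS also moved past it, both with scaling by library size only. All comparisons of *Nos2*, *Slc7a2*, *Gch1* and *Acod1* stayed on their side under every alternative, as did those of *Arg1* and *Arg2* under LPS. Their ranges under LPS were 10.31 to 11.43, 2.66 to 3.31, 1.71 to 2.34, 4.20 to 4.85, -1.75 to -0.96 and 1.83 to 2.71, in that order. Scaling by library size only shifted the median of all genes by -0.58 under LPS, -0.31 under IFN-β and 0.27 between them. It turned *Ass1* under LPS to -0.0938, *Arg1* under IFN-β to -0.10 and *Odc1* between IFN-β and LPS to 0.25 (adjusted p = 0.0188). *Odc1* between IFN-β and LPS also turned to 0.00226 with the 2 groups alone, 0.0330 without LPS library B and 0.0322 without IFN-β library C, and *Ass1* between them to -0.00580 without IFN-β library C. Leaving out 1 library gave -0.0905 to 0.0330 for that *Odc1* value and -0.00580 to 0.194 for that *Ass1* value. The block moved 3 calls past the threshold (*Arg2* under IFN-β at 0.52, *Odc1* under LPS and IFN-β) and changed no other call of the 27. With a log2 fold change of at least 1 also required, 5429 genes passed under LPS, 2052 under IFN-β and 2834 between them, in place of 11084, 7631 and 7989, and 6, 4 and 5 of the 9 genes. Without a filter on low counts *Arg2* under IFN-β passed at 0.53 (adjusted p = 0.0199). With 3 libraries per group the exact tests cannot fall below 0.1, and the 41 counts of *Nos2* in 1 unstimulated library limit how closely its fold change can be given.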

Other observations

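The highest letter, the lowest letter or both were the same in all 3 groups for some of the 9 genes. The share of all tested genes with such a repeat is not given here. Library A had the most *Nos2* in each group, library A the most and library C the least *Arg2*, library C the most and library A the least *Ass1*, library B the least *Arg1*, and library C the least *Odc1*. For *Arg2* with IFN-β, libraries B and C were nearly equal, at 3.771 and 3.756 CPM. For *Slc7a2*, *Gch1*, *Asl* and *Acod1* neither the highest nor the lowest letter was the same in all 3 groups. The letters are the only replicate labels given, and what they stand for was not tested.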
